A study of Homo sapiens with 12 samples.

Results

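The genes described here encode the subunits of oxidative phosphorylation, the respiratory complexes I to IV and the ATP synthase (complex V), in human adipocytes with and without knockdown (KD) of the long intergenic non-coding RNA linc-ADAIN. Members were chosen by gene symbol alone. Symbols starting with MT-ND, MT-CO, MT-CYB or MT-ATP were taken for the mitochondrial genome, and NDUFA, NDUFB, NDUFC, NDUFS, NDUFV, UQCR, COX4 to COX8, ATP5, SDHA to SDHD and CYC1 for the nuclear genome. Of 28901 named genes, 104 matched after 161 pseudogene symbols were left out, and 97 of these had at least 120 counts over the 12 libraries. The 97 members comprised 13 mitochondrial and 84 nuclear genes, so every protein-coding gene known in human mitochondrial DNA was included. The 7 below the minimum were ATP5MGL, COX4I2, COX6A2, COX6B2, COX7B2, COX8C and UQCRHL, with 0 to 67 counts each over all libraries, and the least abundant members that passed were COX6B1 with 205, NDUFA4L2 with 328 and NDUFC2-KCTD14 with 492. The symbols also took in rows that are not plain subunits, namely the read-through loci NDUFC2-KCTD14 and ATP5MF-PTCD1, the supercomplex factor COX7A2L, the paralog NDUFA4L2 and the ATP synthase inhibitor ATP5IF1.

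Poly(A) RNA was sequenced from ASC52telo hTERT cells, an immortalized line of human adipose-derived mesenchymal stem cells, at day 14 of adipocyte differentiation. Cells had received lentivirus (pLVX-shRNA2, which also carries the green fluorescent protein ZsGreen) with scramble shRNA or linc-ADAIN shRNA and were sorted for ZsGreen. All groups went through the same differentiation in insulin, dexamethasone, isobutylmethylxanthine and rosiglitazone, followed by maintenance medium. The 4 groups of 3 libraries were scramble, scramble with LPS (lipopolysaccharide, a bacterial cell-wall component, at 100 ng/mL for 4 h), KD, and KD with LPS. All libraries came from a single cell line, and the study describes the RNA sequencing as a single experiment in triplicate. The n of 3 therefore counts libraries and not independent experiments, and p-values measure the spread between these libraries, which may be technical. The linc-ADAIN transcript was not analysed here, so the knockdown was not checked in these libraries and KD is used as the labels give it.

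Complexes I, III and IV pass electrons from NADH and ubiquinol to oxygen and pump protons across the inner mitochondrial membrane, complex II (succinate dehydrogenase) feeds in electrons from the tricarboxylic acid cycle without pumping, and complex V uses the proton gradient to make ATP. Complexes I, III, IV and V are built from proteins of both genomes, whereas complex II is encoded wholly in the nucleus. The mitochondrial genes are transcribed as long polycistronic RNAs that are cut into messengers inside the organelle, where most of these are polyadenylated. The nuclear subunits are transcribed gene by gene, translated in the cytosol and imported.

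Counts on named genes totalled 28381782 to 53837400 per library. Adipocyte markers moved with the shRNA. Sums over marker lists are in counts relative to library size (CPM), without scaling by TMM. Levels of single genes are in counts relative to library size scaled by TMM (scaled CPM). The adipocyte markers summed to 3131 to 4284 in scramble and 3545 to 4119 in scramble with LPS. Their sum was 675.6 to 1954 in KD and 520.7 to 1227 in KD with LPS. Of the 10 markers, 7 fell with KD without LPS and 8 with LPS, and the markers LEP and LPL had at most 21 and 82 counts in any library. Summed stromal and preadipocyte markers were 4967 to 6030 in scramble, 4669 to 5278 in scramble with LPS, 7052 to 8166 in KD and 8181 to 9023 in KD with LPS. Of the 8, 3 were higher and 3 lower in each KD comparison. DCN was the largest part of these sums, at 2671 scaled CPM in scramble and 4904 in KD, and 2431 and 6041 with LPS. THY1, PDGFRB and ENG fell in both comparisons, so the higher sums do not show a general rise of stromal markers. Macrophage and leukocyte markers summed to 51.96 to 57.5 in scramble, 53.9 to 66.4 in scramble with LPS, 33.7 to 39.2 in KD and 27.6 to 32.3 in KD with LPS, and endothelial markers to 23.2 to 26.5 in scramble, 14.7 to 16.3 in scramble with LPS, 12.4 to 13.1 in KD and 8.68 to 13.2 in KD with LPS. The defining markers PTPRC, ITGAM and CDH5 had at most 12, 6 and 3 counts in any library. Members of these lists moved both ways with KD in the libraries with LPS: CD68 averaged 60.1 scaled CPM in scramble and 25.4 in KD, CD14 0.348 and 2.25, VWF 4.70 and 0.698, and KDR 0.107 and 3.12. Of 5 tested macrophage and leukocyte markers 1 rose and 1 fell there, and of 4 endothelial markers 1 rose and 3 fell. In bulk RNA, fewer adipocytes and less adipocyte RNA per cell cannot be told apart, and the part of the falling adipocyte markers in the results below was not tested.

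The mitochondrial members' share of the RNA was lowest in scramble and higher in each of the other 3 groups. These 13 genes held 9.06, 8.09 and 9.40% of the counts of the scramble libraries (mean 8.85% ± 0.679, SD, n = 3). The share was 12.1, 10.8 and 10.7% in scramble with LPS, 14.01, 11.6 and 12.01% in KD, and 12.8, 11.6 and 12.8% in KD with LPS. Every scramble library lay below all 9 others, whereas the other 3 groups overlapped one another. The ratio of group means was 1.417 for KD over scramble without LPS, 1.11 for KD over scramble with LPS, 1.26 for LPS in scramble and 0.991 for LPS in KD. These shares are a description, with no test.

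**Figure D1:**
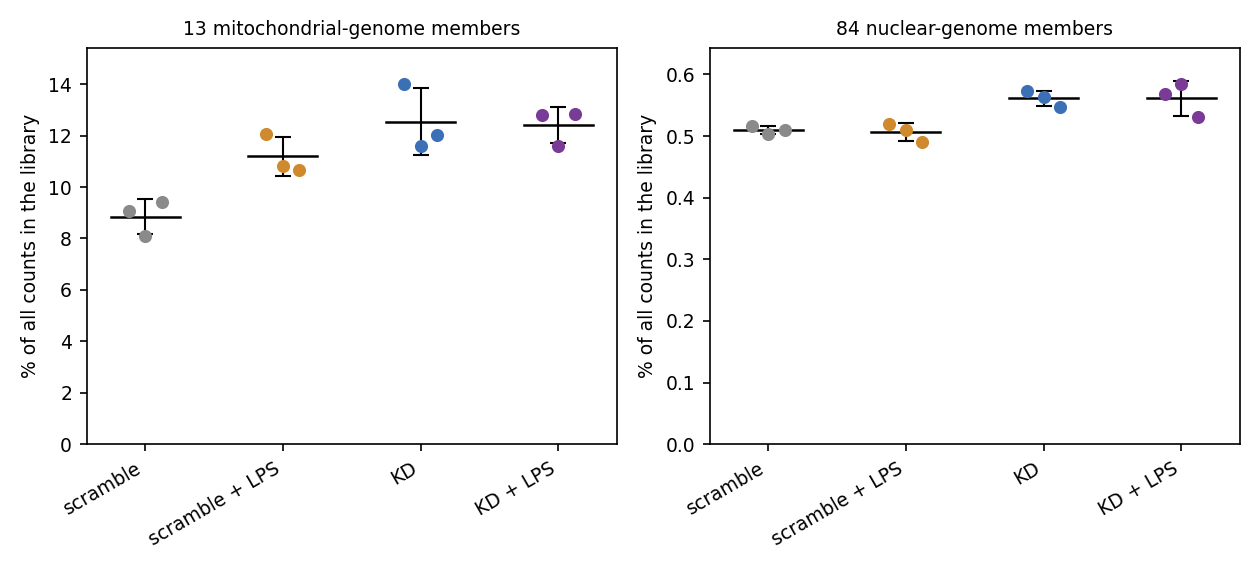
Share of all counts (%, y axis from 0) held by the 13 mitochondrial-genome members and the 84 nuclear-genome members in the 12 libraries, by group. Points are libraries, with the mean ± SD of 3. The 3 scramble libraries sit at 8.09% to 9.40% for the mitochondrial members, below all others, and the nuclear shares of each KD group lie above those of its scramble group.

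Sequencing depth moved with the mitochondrial share. The scramble libraries held 48094472 to 53837400 counts, and in 3 of 4 groups the deepest library also had the lowest mitochondrial share of its group. Its part in the shares was not tested. After thinning every library to the smallest total, 9, 5, 10 and 0 mitochondrial members were called for KD without LPS, KD with LPS, LPS in scramble and LPS in KD, as many as without thinning. Thinning keeps each gene's expected share of its library, so these counts do not show whether depth had a part.

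The nuclear members held 0.504% to 0.517% of the counts in scramble, 0.490% to 0.520% in scramble with LPS, 0.548% to 0.573% in KD and 0.530% to 0.585% in KD with LPS. The share was higher in each KD group than in its scramble group without overlap, by a ratio of 1.1 without LPS and 1.11 with LPS. On the TMM scale, however, the median nuclear member differed by only 0.02 (log2) without LPS and 0.07 with LPS, close to the 0.02 and 0.03 of all genes. Scaling by library size alone moved the median of all genes to 0.13 and 0.11, and the log2 values below are relative to the TMM scale.

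Per kilobase of transcript, the complex IV genes MT-CO1 and MT-CO3 were the most abundant members. In scramble MT-CO1 averaged 14416 and MT-CO3 14146 scaled CPM per kb, with overlapping libraries, and in KD the means were 19064 and 21328. The least abundant mitochondrial gene was MT-ND6, the only one annotated on the minus strand (chrM:14149-14673, GENCODE release 44 on GRCh38), with 434 to 1293 counts per library. Its neighbour MT-CYB begins at 14747, and whether strand was used in counting is not given in the sources used here. With the length of the canonical transcript in GENCODE release 44, the highest nuclear members per kb in scramble were NDUFS5, ATP5MF and ATP5F1B. NDUFS5 is of complex I and the other genes of complex V, and they stood at 219.2, 214.1 and 209.7 scaled CPM per kb. This order depends on the lengths used, which were 495 bases for NDUFS5 but 8459 for UQCRB and 3610 for ATP5F1E. The transcripts present in these cells were not determined.

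The mitochondrial genes are packed so tightly that neighbours share bases. Shown are the 46 and 7 bases (capitals) that belong to both coding sequences of a pair carried on a shared messenger, with flanking bases in lower case, because reads from these stretches cannot be assigned to either gene alone. MT-ATP8 and MT-ATP6 share chrM:8527-8572, and MT-ND4L and MT-ND4 share chrM:10760-10766, on the plus strand of GRCh38.
MT-ATP8/MT-ATP6: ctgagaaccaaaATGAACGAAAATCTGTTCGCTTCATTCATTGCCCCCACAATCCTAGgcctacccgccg
MT-ND4L/MT-ND4: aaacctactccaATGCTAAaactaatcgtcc
Each capital stretch opens with the start codon ATG of the downstream gene. The members of a pair are counted separately here although they share RNA molecules.

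Near-identical copies of mitochondrial genes in the nuclear genome also drew counts. MTATP6P1, 98.5% identical to MT-ATP6, held 13.2% as many counts as MT-ATP6. MTND2P28 (98.4% identical to MT-ND2) held 1.57% and MTND1P23 (95.4% identical to MT-ND1) held 1.48% as many as their parents. MT-ATP6 is therefore uncertain to that extent. Adding the copies to their parents, an alternative chosen after seeing the data, gave 9, 5, 10 and 0 called mitochondrial members, as many as before.

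Without LPS, most mitochondrial messengers were higher in KD than in scramble. By edgeR's quasi-likelihood test with Benjamini-Hochberg adjustment over all 16217 genes tested, 9 of 13 rose and 0 fell, against a background of 12.1% of all tested genes higher and 15.1% lower. The median log2 fold change was 0.41 over the 13 genes and 0.02 over all genes. None was called at 2-fold, as 7.77% of all genes were. The number called was 7 without scramble replicate 2 and 7 without KD replicate 1.

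MT-CYB (chrM:14747-15887), the only mitochondrial subunit of complex III, stood at 5911, 4805 and 5387 scaled CPM in scramble and 10301, 7852 and 8906 in KD, so the groups did not overlap. Its log2 fold change was 0.75 ± 0.10 (SE, 3 libraries per group, edgeR adjusted p = 0.00018). MT-CO3 (chrM:9207-9990), a core subunit of complex IV, was at 11137, 10053 and 12080 in scramble and 18704, 15541 and 15919 in KD, a log2 fold change of 0.60 ± 0.09 (edgeR adjusted p = 0.00033). Both were higher in all 3 KD libraries. Of all genes tested, 42.5% had groups that did not overlap, in either direction, for KD without LPS and 40.6% for KD with LPS. For LPS these shares were 32.1% in scramble and 27.3% in KD. The other complex IV genes, MT-CO1 and MT-CO2, rose by 0.41 and 0.35 on the log2 scale, and MT-ATP6 and MT-ATP8, subunits of the membrane part of complex V, by 0.49 and 0.38.

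The 7 complex I genes, which form the core of its membrane arm, split. MT-ND4, MT-ND4L and MT-ND6 rose, by 0.49, 0.42 and 0.79 on the log2 scale. MT-ND1, MT-ND2, MT-ND3 and MT-ND5 were not called, with log2 values of 0.16, 0.06, 0.28 and 0.19 and edgeR adjusted p = 0.3, 0.72, 0.089 and 0.19. MT-ND2 (chrM:4470-5511) was at 9077, 8342 and 9946 scaled CPM in scramble and 10970, 8553 and 8891 in KD, and these groups overlapped.

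**Figure D2:**
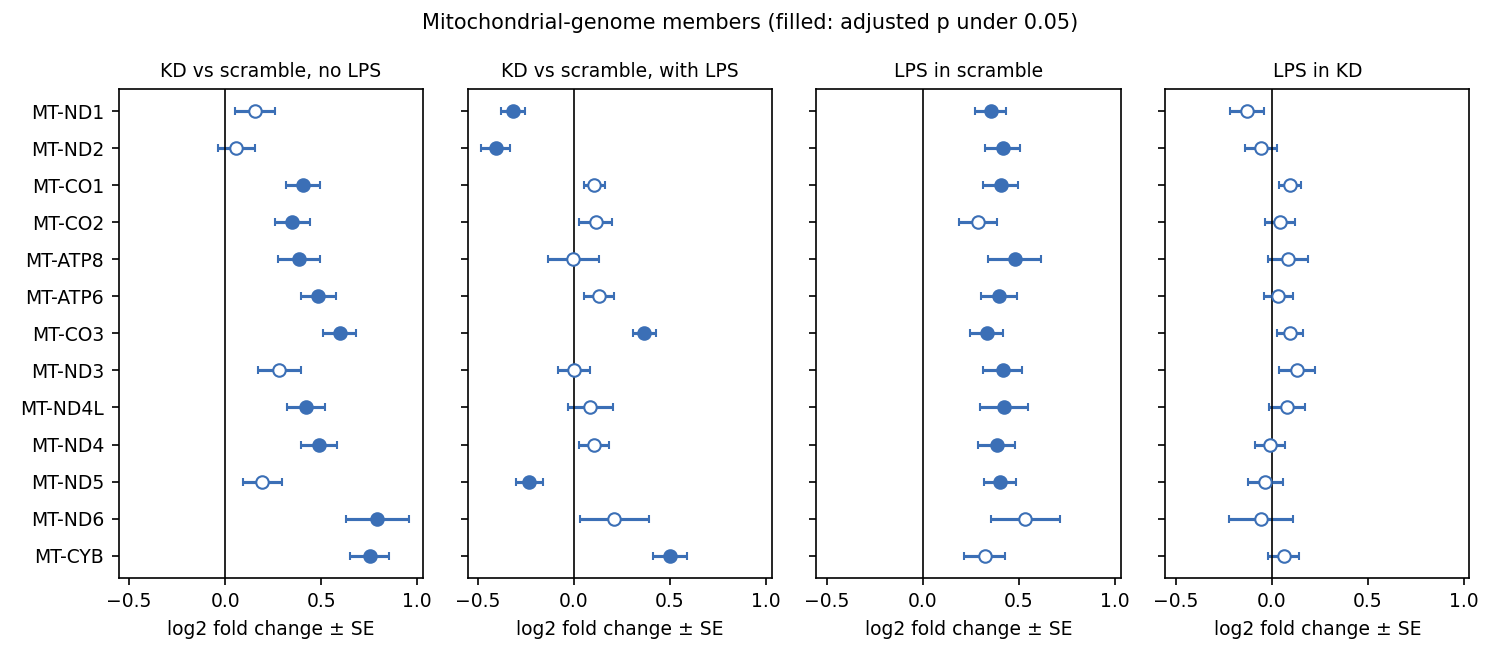
log2 fold change ± SE of the 13 mitochondrial-genome members in the 4 comparisons of 3 libraries against 3. Filled points had an edgeR adjusted p under 0.05. Without LPS all 13 KD values lie above 0 (0.06 to 0.79), with LPS they span both sides of 0 (-0.41 to 0.50), LPS in scramble gave 0.29 to 0.53 and LPS in KD -0.13 to 0.13.

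With LPS in both groups, the shares of mitochondrial genes called higher and lower in KD were near those of all genes. Of the 13, 2 rose and 3 fell, against 12.7% higher and 14.2% lower of the 15981 genes tested, with a median log2 fold change of 0.10. None was called at 2-fold, as 8.48% of all genes were. MT-CYB was at 7698, 6229 and 6015 scaled CPM in scramble with LPS and at 9683, 8763 and 9800 in KD with LPS, a log2 fold change of 0.50 ± 0.09 (edgeR adjusted p = 0.00068). MT-CO3 was also higher in all 3 KD libraries, by 0.37 ± 0.06 (edgeR adjusted p = 0.00049).

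The genes that fell, MT-ND1, MT-ND2 and MT-ND5, all belong to complex I. MT-ND2 was at 13252, 11600 and 11341 scaled CPM in scramble with LPS and at 9761, 8347 and 9195 in KD with LPS, without overlap, and its log2 value fell by 0.41 ± 0.07 (edgeR adjusted p = 0.001). MT-ND1 was at 10540, 10533 and 9978 against 8578, 7741 and 8624 and fell by 0.32 ± 0.06 (edgeR adjusted p = 0.0014). MT-ND5 fell by 0.23 ± 0.07 (edgeR adjusted p = 0.026), a call lost under 5 of 16 alternatives. Without scramble with LPS replicate 1, 8 were called, 6 higher and 2 lower.

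The split among the 13 genes can be described without scaling factors by each gene's share of the 13 genes' counts within a library. These shares come from the same counts and are no separate support. They have a fixed total, so a larger share of some genes lowers the shares of others. In both KD comparisons MT-CO3 and MT-CYB took a larger share in all KD libraries than in any scramble library, and MT-ND1, MT-ND2 and MT-ND5 a smaller share, while the other 8 overlapped in at least 1 comparison. MT-CYB made up 6.39%, 5.83% and 5.55% of these counts in scramble and 7.64%, 7.22% and 7.80% in KD. MT-ND2 made up 9.81%, 10.1% and 10.2% in scramble and 8.13%, 7.87% and 7.79% in KD. In the libraries with LPS, MT-CYB made up 5.40% to 6.11% in scramble and 7.65% to 7.75% in KD, and MT-ND2 10.2% to 10.5% and 7.18% to 7.75%. The ratio of MT-CYB to MT-ND2 counts was 0.530 to 0.651 over the 6 scramble libraries and 0.918 to 1.07 over the 6 KD libraries. These genes were singled out after their values were seen, and the ranges carry no test. In scaled CPM, 42.5% of all genes tested had groups that did not overlap for KD without LPS and 40.6% for KD with LPS. The number of genes whose shares separated is therefore not read as a result.

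**Figure D3:**
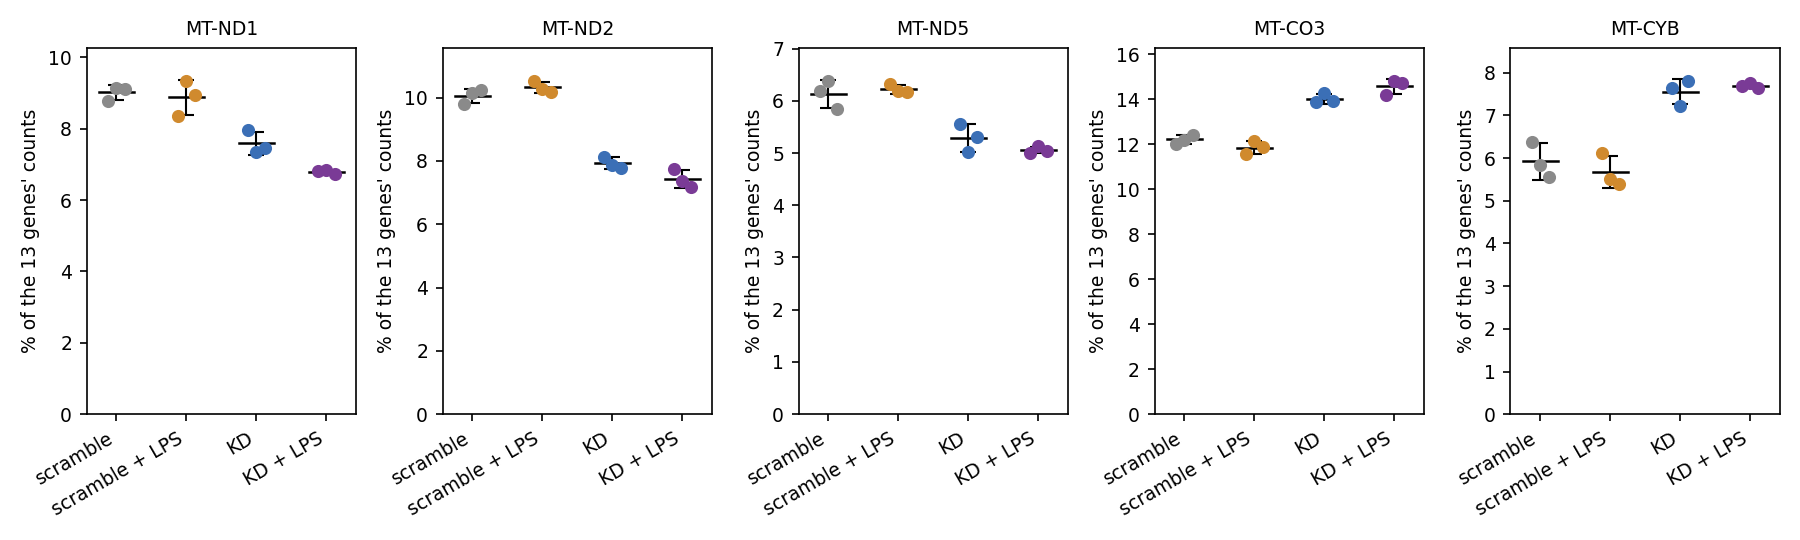
Share of the 13 mitochondrial genes' counts (%) taken by MT-ND1, MT-ND2, MT-ND5, MT-CO3 and MT-CYB in each library, by group, with the mean ± SD of 3. For each gene the KD points do not overlap the scramble points with the same LPS treatment, and are lower for the ND genes and higher for MT-CO3 and MT-CYB.

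The KD effects with and without LPS came from different libraries. Across the 13 genes their log2 fold changes had a Pearson correlation of 0.91 and a Spearman correlation of 0.88. This is a description over genes that are cut from shared precursor RNAs and measured in the same libraries. For every gene the value without LPS was the higher, by 0.23 to 0.58. Across the 84 nuclear members the correlations were 0.27 and 0.61. These 84 include members with few counts, among them the read-through locus NDUFC2-KCTD14, which had the largest log2 value with LPS, 3.44. A Pearson correlation is sensitive to such values, and their part in it was not tested.

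In scramble cells, mitochondrial messengers were higher with LPS, by like amounts across the genes. Of the 13, 10 rose and 0 fell, against 5.9% higher and 8.38% lower of the 15920 genes tested. None was called at 2-fold, as 2.68% of all genes were. The median log2 fold change was 0.40, and MT-CO2, MT-CYB and MT-ND6 were not called (edgeR adjusted p = 0.078, 0.071 and 0.069). MT-CO1 stood at 21302, 19997 and 25391 scaled CPM without LPS and at 29353, 28769 and 29489 with LPS, a log2 fold change of 0.41 ± 0.09 (edgeR adjusted p = 0.012). MT-ND5 was at 5723, 5253 and 5682 and 7956, 6978 and 6862, a log2 fold change of 0.40 ± 0.08 (edgeR adjusted p = 0.0069). No gene's share of the 13 genes' counts separated the scramble groups.

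This result rests on scramble replicate 2, the library with the lowest mitochondrial share. Without it 0 of 13 were called by edgeR, although all 13 log2 values lay between 0.24 and 0.44. Without scramble with LPS replicate 1, 4 were called, while DESeq2 on all libraries called 13.

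In KD cells, LPS gave no called change in any mitochondrial gene. edgeR called 0 of 13, 0 had an unadjusted p under 0.05, and DESeq2 called 0, against 5.32% higher, 6.03% lower and 2.25% called at 2-fold of the 16169 genes tested. The median log2 fold change was 0.05. For MT-CO1 the 95% interval of the log2 change (t distribution, edgeR degrees of freedom) was -0.03 to 0.22, and for MT-ND1 it was -0.32 to 0.06. Shares of the 13 genes' counts did separate the KD groups for some genes. MT-CO1 took 25.43% to 25.9% with LPS and 23.65% to 25.39% without. MT-ND1 took 6.73% to 6.84% with LPS and 7.36% to 7.96% without, and MT-ND2 and MT-ND4 were also lower with LPS. The other 9 genes overlapped, and these ranges carry no test. In scaled CPM, 27.3% of all genes tested had groups that did not overlap for LPS in KD. Nothing is therefore read from the number of genes whose shares separated.

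The difference between the KD effects with and without LPS was tested itself, and no mitochondrial gene passed. edgeR called 0 of 13 for this interaction over 12 libraries, against 1.28% of the 17173 genes tested. All 13 values were below 0, with a median of -0.35, and 7 had an unadjusted p under 0.05, while DESeq2 called 2, MT-ND1 and MT-ND2. The lowest edgeR adjusted p was that of MT-ND1, with a difference of -0.47 ± 0.13 (edgeR adjusted p = 0.098). The KD comparison without LPS and the LPS comparison in scramble share the 3 scramble libraries, so their level enters both, and the interaction as well.

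Among the 84 nuclear members, fewer than the background share were called with KD without LPS, and with LPS the share that rose was near the background. Without LPS, 4 rose and 1 fell, against the 12.1% and 15.1% of all genes. With LPS, 12 rose and 1 fell, against 12.7% and 14.2%. DESeq2 called 5 and 15. The count without LPS was 3, 2 and 3 without scramble replicates 1, 2 and 3, and 14 when scaled by library size alone, where all 14 were higher.

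By complex, 1 of 38 complex I, 2 of 9 complex III and 1 of 14 complex IV members rose without LPS, and 6, 2 and 4 with LPS. Of all genes tested, 12.1% rose without LPS and 12.7% with LPS. The supercomplex factor COX7A2L is the complex IV rise without LPS and is among the 4 with LPS. The 6 of complex I include the read-through locus NDUFC2-KCTD14. edgeR called none of the 4 complex II or 19 complex V members, of which 1 and 0 had an unadjusted p under 0.05 without LPS and 0 and 2 with LPS. The median of the complex IV members was 0.14 without LPS and 0.27 with LPS, where all 14 values were above 0 on the TMM scale. These 14 include COX6B1 and NDUFA4L2, which had few counts. Of all 84 nuclear members, 61 were above 0 with LPS.

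**Figure D4:**
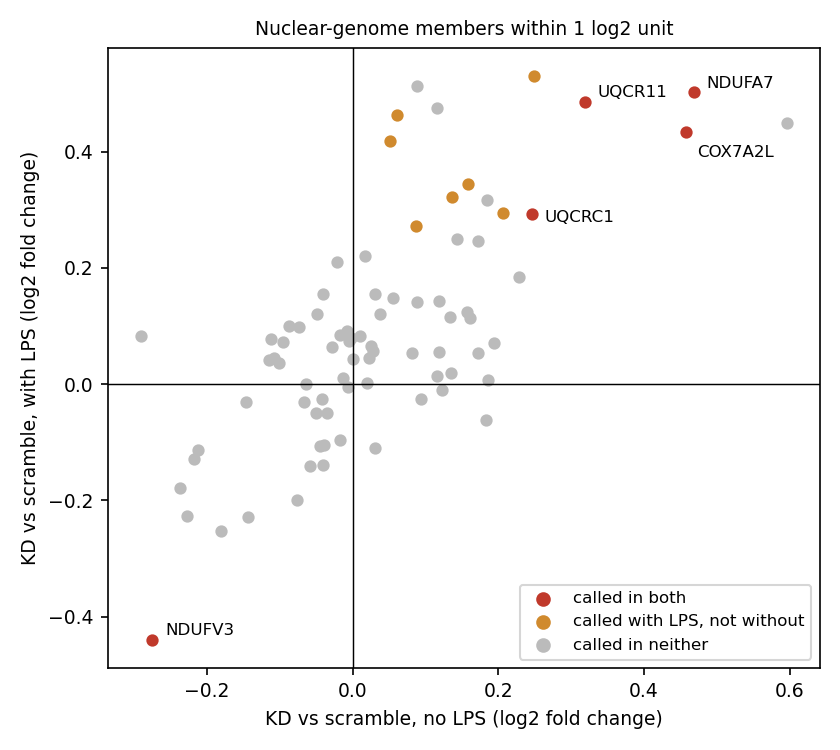
log2 fold change of KD over scramble without LPS against that with LPS for 81 nuclear-genome members, each from its own 6 libraries, with colours for members called by edgeR in both comparisons or with LPS only. The 3 members off the scale are not drawn. COX7A2L, NDUFA7 and UQCR11 lie at the upper right and NDUFV3 at the lower left.

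The 5 nuclear members called in both KD comparisons were NDUFA7, UQCR11, UQCRC1 and COX7A2L, higher, and NDUFV3, lower. Their promoters are shown 5′ to 3′ in the gene's direction because these genes were called in the same comparisons, with matches to 3 motifs in capitals. Each window runs from 250 bases before to 50 after a start of the gene listed in RefSeq. The motifs are those of NRF1 (GCGCA and GCGC, separated by any 1 base), of ETS factors such as GABP (CCGGAAGT) and of YY1 (AAGATGGC), known regulators of respiratory genes, searched on both strands. The sequences are from RefSeq, GRCh38.p14. The NDUFA7 window lies at chr19:8321326-8321625 on the minus strand. The UQCR11 window lies at chr19:1605413-1605712 on the minus strand. The UQCRC1 window lies at chr3:48609597-48609896 on the minus strand. The COX7A2L window lies at chr2:42361168-42361467 on the minus strand. The NDUFV3 window lies at chr21:42893059-42893358 on the plus strand.
NDUFA7 promoter: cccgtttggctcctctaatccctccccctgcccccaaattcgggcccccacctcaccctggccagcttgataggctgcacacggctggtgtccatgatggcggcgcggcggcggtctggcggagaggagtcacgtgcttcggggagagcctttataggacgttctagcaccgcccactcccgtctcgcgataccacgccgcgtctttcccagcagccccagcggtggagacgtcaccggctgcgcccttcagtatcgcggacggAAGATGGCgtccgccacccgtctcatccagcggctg
UQCR11 promoter: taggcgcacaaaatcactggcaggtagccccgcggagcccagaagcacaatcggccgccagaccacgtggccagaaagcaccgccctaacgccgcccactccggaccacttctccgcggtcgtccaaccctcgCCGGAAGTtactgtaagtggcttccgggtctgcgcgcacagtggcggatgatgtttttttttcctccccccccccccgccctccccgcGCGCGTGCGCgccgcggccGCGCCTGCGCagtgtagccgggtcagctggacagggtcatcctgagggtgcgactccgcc
UQCRC1 promoter: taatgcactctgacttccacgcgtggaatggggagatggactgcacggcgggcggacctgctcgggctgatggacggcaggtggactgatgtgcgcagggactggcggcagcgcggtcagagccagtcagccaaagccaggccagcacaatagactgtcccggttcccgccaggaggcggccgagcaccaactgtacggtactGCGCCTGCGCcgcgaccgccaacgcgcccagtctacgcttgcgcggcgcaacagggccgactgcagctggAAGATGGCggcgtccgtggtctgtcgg
COX7A2L promoter: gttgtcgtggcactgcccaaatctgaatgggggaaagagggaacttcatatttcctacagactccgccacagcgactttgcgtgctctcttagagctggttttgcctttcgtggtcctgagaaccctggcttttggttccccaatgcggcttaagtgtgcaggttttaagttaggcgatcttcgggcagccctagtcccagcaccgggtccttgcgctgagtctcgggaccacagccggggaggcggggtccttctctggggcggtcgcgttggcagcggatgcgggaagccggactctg
NDUFV3 promoter: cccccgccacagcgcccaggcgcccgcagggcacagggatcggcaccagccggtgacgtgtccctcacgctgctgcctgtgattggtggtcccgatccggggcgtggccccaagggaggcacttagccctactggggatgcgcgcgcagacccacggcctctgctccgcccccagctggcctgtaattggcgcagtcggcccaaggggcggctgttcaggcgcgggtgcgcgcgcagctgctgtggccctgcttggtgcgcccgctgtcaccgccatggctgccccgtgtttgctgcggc
UQCR11 held 2 NRF1 matches and 1 ETS match, UQCRC1 held 1 NRF1 and 1 YY1 match, NDUFA7 held 1 YY1 match, and COX7A2L and NDUFV3 held none of these letters in this window. Of the 84 nuclear members, 67 had a promoter in the table. NRF1 matches were in 23.9% of these against 5.78% of all 35116 promoters, ETS matches in 14.9% against 4.14%, and YY1 matches in 16.4% against 2.89%. Only the first window listed for each member was used, whereas the 35116 are all windows listed. They were not matched to the members for expression or base composition, so the percentages are no test of enrichment. A match is a description of letters and not of binding.

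NDUFA7, an accessory subunit of complex I, was at 19.1, 17.5 and 18.03 scaled CPM in scramble and at 23.8, 23.8 and 27.8 in KD. With LPS it was at 19.1, 20.5 and 18.7 in scramble and at 25.2, 31.1 and 26.3 in KD, so that no KD library overlapped a scramble library. The log2 fold changes were 0.47 ± 0.11 (edgeR adjusted p = 0.0062) without LPS and 0.50 ± 0.12 (edgeR adjusted p = 0.0058) with LPS.

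COX7A2L, which takes part in joining complexes III and IV into supercomplexes, was at 60.4, 60.2 and 63.1 in scramble and at 84.2, 83.99 and 83.5 in KD. With LPS it was at 70.7, 66.6 and 68.1 and 90.6, 89.8 and 97.2, and again all KD libraries lay above all scramble libraries. Its log2 fold changes were 0.46 ± 0.07 (edgeR adjusted p = 0.00053) and, with LPS, 0.43 ± 0.08 (edgeR adjusted p = 0.0011).

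UQCR11, a small subunit of complex III, was at 67.1, 63.3 and 70.1 in scramble and at 88.6, 75.7 and 85.2 in KD, a log2 fold change of 0.32 ± 0.09 (edgeR adjusted p = 0.015). With LPS it was at 65.1, 75.4 and 62.2 in scramble and 94.7, 107.3 and 81.6 in KD, a log2 fold change of 0.49 ± 0.11 (edgeR adjusted p = 0.0044). UQCRC1, a core protein of complex III, differed less, by 0.25 ± 0.08 (edgeR adjusted p = 0.04) and 0.29 ± 0.10 (edgeR adjusted p = 0.041). UQCRC1 calls were lost under 8 and 4 of 16 alternatives, and the UQCR11 call without LPS under 2 of 16.

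NDUFV3, an accessory subunit of the NADH-oxidizing module of complex I, was the single nuclear member that edgeR called lower with KD. It was at 51.05, 53.4 and 58.4 in scramble and at 48.4, 45.02 and 40.8 in KD, and at 58.8, 58.9 and 50.4 against 43.9, 38.98 and 41.1 with LPS. Its log2 value fell by 0.27 ± 0.09 (edgeR adjusted p = 0.046) and, with LPS, by 0.44 ± 0.10 (edgeR adjusted p = 0.0042). The call without LPS was lost under 9 of 16 alternatives and the call with LPS under 0.

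**Figure D5:**
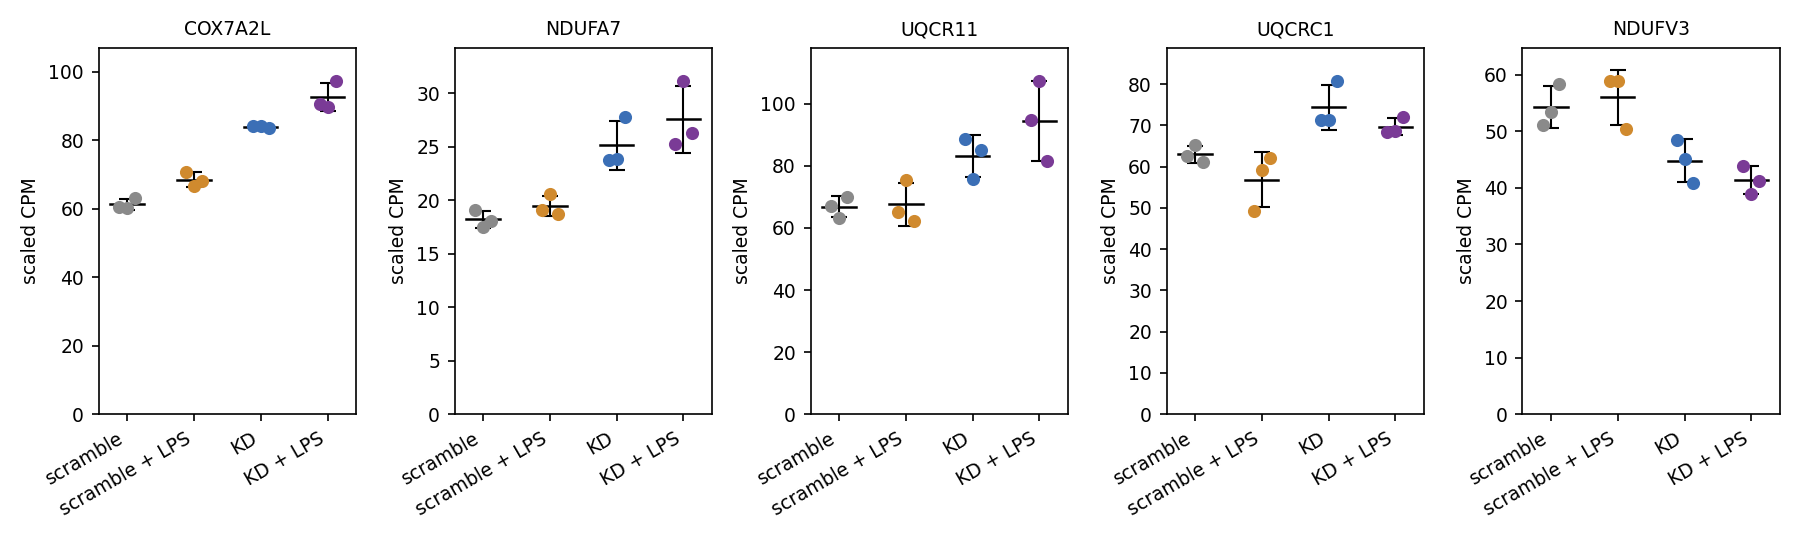
Scaled CPM of the 5 nuclear-genome members called in both KD comparisons, in each of the 12 libraries by group, with the mean ± SD of 3. COX7A2L, NDUFA7, UQCR11 and UQCRC1 are higher and NDUFV3 is lower in KD than in scramble with the same LPS treatment.

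A further 8 members rose with KD among the libraries with LPS. NDUFA5, of the peripheral arm of complex I, was at 38.96, 31.5 and 37.9 scaled CPM in scramble with LPS and at 54.3, 45.3 and 57.3 in KD with LPS, without overlap, a log2 fold change of 0.53 ± 0.12 (edgeR adjusted p = 0.0039). NDUFA2, NDUFB6 and NDUFV2 of complex I rose by 0.42, 0.34 and 0.27 on the log2 scale, and the pseudogene NDUFV2P1 held 7.95% as many counts as NDUFV2. Of complex IV, COX7B, NDUFA4 and COX7C rose by 0.46, 0.32 and 0.29. The read-through locus NDUFC2-KCTD14, which shares sequence with NDUFC2, was the only member called at 2-fold. It had 0, 10 and 15 counts in scramble with LPS and 86, 103 and 79 in KD with LPS, but 74, 49 and 0 in scramble. UQCRC1, NDUFA2, NDUFB6, NDUFV2, COX7C and NDUFC2-KCTD14 were chosen for mention after their values were seen.

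LPS was followed by a called change in 2 nuclear members, 1 of 84 under each shRNA, against 5.9% of all genes higher and 8.38% lower in scramble and 5.32% and 6.03% in KD. In scramble, ATP5MF-PTCD1, a read-through of a complex V subunit and its neighbour, was at 7.71, 6.45 and 7.20 scaled CPM without LPS and 3.91, 4.85 and 4.99 with LPS, and its log2 value fell by 0.62 ± 0.18 (edgeR adjusted p = 0.038). It was called in none of the 6 fits that left out a library. In KD, COX7B rose by 0.47 ± 0.14 (edgeR adjusted p = 0.043), with overlapping libraries at 38.2, 50.3 and 32.9 in KD and 61.4, 50.2 and 56.3 with LPS, and this call was lost under 5 of 16 alternatives. For the interaction, edgeR called 0 of 84, with 2 at an unadjusted p under 0.05, and DESeq2 called 0.

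Several subunits have tissue isoforms. COX4I1 was at 141.5 to 200.1 scaled CPM, COX6A1 at 98.2 to 123.3, COX7B at 32.9 to 61.4, COX8A at 41.2 to 55.4 and UQCRH at 87.2 to 108.4, while their counterparts COX4I2, COX6A2, COX7B2, COX8C and UQCRHL did not reach the count minimum. COX7A1, the isoform of muscle and brown fat, was at 4.75 to 9.63 and COX7A2 at 56.1 to 70.8. COX7A1 was not called, with a log2 value of 0.51 ± 0.19 (edgeR adjusted p = 0.064) for KD with LPS. NDUFA4L2, known from hypoxia, had 12 to 71 counts per library, COX6B1 0 to 38, and ATP5MC2 34 to 174. The other genes for the c-ring of complex V, ATP5MC1 and ATP5MC3, were called in none of the 4 comparisons by edgeR, with log2 values of at most 0.12 and 0.06 in size. Why COX6B1, NDUFA4L2 and ATP5MC2 had so few counts was not tested, and a lack of expression is not read from them.

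The 4 genes of succinate dehydrogenase, the complex with no mitochondrial gene, were called by edgeR in no comparison. SDHA, the flavoprotein, was at 56.7, 60.6 and 57.04 scaled CPM in scramble and at 65.3, 65.8 and 67.8 in KD, which did not overlap, with a log2 value of 0.19 ± 0.07 (edgeR adjusted p = 0.076). SDHB, the iron-sulfur protein, and the membrane anchors SDHC and SDHD had KD log2 values of -0.05, 0.02 and -0.01 without LPS and 0.12, 0.00 and 0.01 with LPS. CYC1, cytochrome c1 of complex III, had values of 0.12 and 0.06.

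Genes that build or serve the chain were taken from lists by function, and their counts stand beside the 12.1% higher and 15.1% lower of all genes with KD without LPS, 12.7% and 14.2% with LPS, 5.9% and 8.38% for LPS in scramble and 5.32% and 6.03% for LPS in KD. No list was tested as a whole, and nothing is read from counts near these shares. Of 48 assembly factors, 5 rose and 9 fell with KD without LPS and 2 rose and 6 fell with LPS, and LPS gave 2 higher and 2 lower in scramble and 0 and 1 in KD. SDHAF3, of complex II assembly, rose by 1.39 ± 0.23 (edgeR adjusted p = 0.00085) without LPS and 0.72 ± 0.22 (edgeR adjusted p = 0.031) with LPS, and TTC19, of complex III, fell by 0.75 ± 0.09 (edgeR adjusted p = 1.9e-05) with LPS. The SDHAF3 call with LPS was lost under 3 of 16 alternatives. Of 28 genes for mitochondrial transcription, RNA processing and DNA maintenance, 0 rose and 6 fell with KD without LPS and 1 rose and 6 fell with LPS, and LPS gave 0 higher and 5 lower in scramble and 1 and 5 in KD. TRMT10C, part of the enzyme that cuts transfer RNAs out of the mitochondrial precursor, averaged 90.6 scaled CPM in scramble and 59.7 in KD. It fell by 0.60 ± 0.11 (edgeR adjusted p = 0.0014) without LPS and by 0.62 ± 0.09 (edgeR adjusted p = 0.00019) with LPS. PRORP, the nuclease of the same enzyme, fell by 0.38 ± 0.10 (edgeR adjusted p = 0.017) without LPS, a call lost under 4 of 16 alternatives.

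Against the same shares of all genes, of 17 electron carriers and coenzyme Q synthesis genes, 0 rose and 6 fell with KD without LPS and 0 rose and 3 fell with LPS, and LPS gave 1 higher and 1 lower in scramble and 0 and 0 in KD. ETFDH and ETFB, which pass electrons from fatty acid oxidation to ubiquinone, fell by 0.90 ± 0.10 (edgeR adjusted p = 4.8e-05) and 0.76 ± 0.10 (edgeR adjusted p = 9.8e-05) without LPS. Of 18 tricarboxylic acid cycle genes, 1 rose and 6 fell with KD without LPS and 0 rose and 5 fell with LPS, and LPS gave 0 higher and 1 lower in scramble and 0 and 1 in KD. Of 78 mitochondrial ribosomal proteins, 4 rose and 7 fell with KD without LPS and 2 rose and 4 fell with LPS, and LPS gave 0 higher and 3 lower in scramble and 0 and 3 in KD. Of 9 tested uncoupling proteins and nucleotide and phosphate carriers, 0 rose and 1 fell with KD without LPS and 0 rose and 1 fell with LPS, both calls being the ADP/ATP carrier SLC25A4, and LPS gave 0 higher and 0 lower in scramble and 0 and 0 in KD.

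Of 13 supercomplex and cristae genes, 3 rose and 1 fell with KD without LPS and 3 rose and 2 fell with LPS, and LPS gave 0 higher and 0 lower in scramble and 0 and 1 in KD. MICOS13, of the cristae junction complex, rose by 0.63 ± 0.10 (edgeR adjusted p = 0.00047) and 0.68 ± 0.18 (edgeR adjusted p = 0.011), and OPA1, which shapes the inner membrane, fell by 0.30 ± 0.09 (edgeR adjusted p = 0.03) and 0.38 ± 0.09 (edgeR adjusted p = 0.0054). The OPA1 call without LPS was lost under 6 of 16 alternatives and the MICOS13 call with LPS under 2 of 16. The part of the falling adipocyte markers in these lists was not tested.

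Of 12 regulators of mitochondrial biogenesis, 10 were tested without LPS and 9 with LPS. Of these, 1 rose and 1 fell with KD without LPS and 1 rose and 2 fell with LPS, and LPS gave 0 higher and 2 lower in scramble and 0 and 3 in KD. GABPB1, a subunit of the factor GABP, rose by 0.52 ± 0.12 (edgeR adjusted p = 0.0086) and 0.55 ± 0.12 (edgeR adjusted p = 0.0026), and YY1 fell by 0.29 ± 0.08 (edgeR adjusted p = 0.019) without LPS. The YY1 call was lost under 4 of 16 alternatives. PPARGC1B, a coactivator of respiratory gene transcription, stood at 14.1, 12.8 and 15.7 scaled CPM in scramble and at 13.8, 13.96 and 15.3 in KD. With LPS it was at 11.4, 9.61 and 10.2 in scramble and at 6.11, 3.44 and 4.96 in KD, so all KD libraries with LPS lay below every other library.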

How the data were processed

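RNA was measured in 12 libraries, 4 groups of 3, grouped by the labels. The deposited table holds estimated counts per gene that the authors made with kallisto 0.44.0 after bcl2fastq 2.19, on GRCh38 per the submitters' processing notes, which also name DESeq2 1.32.0. The kit was stranded, and the strand setting and annotation release are not given in the sources used here. Estimated counts share reads among near-identical genes in proportion, so copies and read-through loci are uncertain.

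Counts were rounded. A row with no gene name, 0.235% to 0.306% of each library, was left out. Genes with at least 10 counts over a fit were tested with edgeR 4.0.16 (R 4.3.3, limma 3.58.1), TMM scaling and the quasi-likelihood F test, on the 6 libraries of each comparison and on all 12 for the interaction, with Benjamini-Hochberg adjustment over all genes and a threshold of 0.05. The SE was the log2 fold change divided by the square root of F. DESeq2 1.42.0 was an alternative, with other scalings, no filter on low counts, thinning, a replicate block and leaving out each library. The steps were tested on simulated data. Total counts were 28381782 to 53837400 per library, and log2 CPM of libraries of a group correlated at 0.971 to 0.986.

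The members and lists were chosen with earlier results of these data known. Symbols that end like pseudogenes were left out, with MT-ATP6 and MT-ATP8 kept. Genes named were all mitochondrial members, up to 3 rises and 3 falls per comparison among called nuclear members with at least 50 counts per library and no overlap between groups, isoform sets, succinate dehydrogenase and CYC1, and up to 2 rises and 2 falls per list. Positions are from GENCODE release 44 and promoters from RefSeq.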

Additional observations from a re-analysis of the deposited data

Results flagged for a closer look

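PPARGC1B was singled out because its response to LPS differed between the groups by a test of the difference itself. The KD effect with LPS minus that without LPS was -1.128 on the log2 scale (SE 0.25, edgeR adjusted p = 0.031, 12 libraries). With LPS the log2 value fell by 0.43 in scramble (edgeR adjusted p = 0.049), a call lost under 7 of 16 alternatives, and by 1.57 in KD (edgeR adjusted p = 0.00012), a call lost under 0 of 16, and all 3 KD libraries with LPS lay below the other 9. Leaving out 1 library at a time gave differences of -1.36 to -0.92 with edgeR adjusted p = 0.0099 to 0.11, and 8 of 12 such fits did not pass the threshold.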

How the results depend on the processing

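Of 248 results on single genes, 163 kept their side of the threshold under all alternatives run, 63 lost a call and 22 gained one under at least 1, and no called value changed sign. Values that were not called changed sign in 14 of 1056 pairs of gene and alternative for KD without LPS, 24 of 1120 for KD with LPS, 17 of 798 for LPS in scramble, 38 of 768 for LPS in KD and 0 of 294 for the interaction. For KD without LPS, 5 nuclear members were called, against 14 with library size only and 2 to 5 with 1 library left out, and their median rose from 0.02 to 0.13 (0.1258) with library size only. For KD with LPS that median rose from 0.07 to 0.16 (0.1586), and 4 to 8 mitochondrial members were called with 1 library left out, against 5. For LPS in scramble these fits called 0 to 11 mitochondrial members, against 10, and 0 nuclear members in each, against 1. For LPS in KD, where 1 nuclear member was called, DESeq2 and no filter on low counts each called 3, thinning 2, library size only 0, and fits without 1 library 0 to 2, with 0 to 1 mitochondrial members. For the interaction, DESeq2 and no filter on low counts each called 2 mitochondrial members and fits without 1 library 0 to 1, against 0. The ratio of nuclear shares for KD without LPS was 1.147 with counts of nuclear-genome genes as denominator and 1.039 from mean log2 CPM, against 1.1, and for LPS in KD 1.068 from mean log2 CPM, against 0.9998. The causes were not tested.

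Replicate numbers are shared between groups. Over all genes, same-numbered libraries did not deviate together (correlations of -0.0241 to 0.0624), and the main fits did not pair them. Within the mitochondrial genes' counts, however, the share of MT-CO1 was lowest in replicate 1 of every group. It was 23.01% in scramble, 23.30% in scramble with LPS, 23.65% in KD and 25.43% in KD with LPS. The check over all genes therefore does not settle whether the numbers pair the libraries for these members. With a replicate block, 9, 5, 13 and 0 mitochondrial members were called in the 4 group comparisons and 3 in the interaction, and 3, 19, 1 and 2 nuclear members in the group comparisons. The members with the fewest counts, COX6B1, NDUFA4L2, NDUFC2-KCTD14 and ATP5MC2, are the least certain, and why their counts were low was not tested.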
